A study of Homo sapiens with 6 samples.

Results

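The RNA of 10 transcription factors that define pancreatic beta cells was followed in EndoCBH1 cells after transfection of siRNA against MNX1. The factors, chosen by name, are PDX1, NKX6-1, NKX2-2, PAX6, ISL1, NEUROD1, INSM1, MLXIPL, GLIS3 and ST18. All 10 were found, as 10 of the 16792 genes of the deposited table. EndoCBH1 (EndoC-βH1) is a human beta cell line that was established from pancreas of the fetal stage. In 3 libraries (siMNX1, MNX1 knock down) the cells had received MNX1 siRNA and in the other 3 (siNT, WT) a non-targeting siRNA. Both groups are otherwise the same line, the time after transfection is not given in the sources used here, and the labels say neither whether the replicates are separate cultures nor whether the siMNX1 replicates received the same siRNA sequence. P-values therefore measure only the spread between these libraries, which may be technical.

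Beta cell identity rests on a small network of DNA-binding proteins that bind the insulin gene and each other's genes. PDX1, NKX6-1, NKX2-2, PAX6 and ISL1 carry a homeodomain, as does MNX1. NEUROD1 is a basic helix-loop-helix activator, INSM1, GLIS3 and ST18 are zinc finger proteins, and MLXIPL (ChREBP) is the glucose-responsive partner of MLX. Mutations of PDX1, NEUROD1, NKX2-2, PAX6 and GLIS3 cause inherited forms of diabetes in humans, and in mice MNX1 itself is needed for beta cells to keep their fate.

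Values are the authors' normalized counts per gene. Library totals of these values ran from 18436560 to 18704645 in siMNX1 and from 18406479 to 18600819 in siNT, which follows the normalization and is not depth. The depth behind each value is unknown. The line carried beta cell RNA, with INS at 119146 to 130171 in siMNX1 and 107169 to 114592 in siNT. The siMNX1 libraries all lay above the siNT libraries for INS, as for 12% of all genes. INS did not pass the threshold of an adjusted p of 0.05 in limma. Of 20 listed beta cell markers, 19 were in the table. Of these, 3 were higher and 4 lower in siMNX1, against 1.99% and 1.33% of all genes. Without siMNX1 replicate 1, siNT replicate 2 or siNT replicate 3, 1 was higher. Without siNT replicate 1 or 2, 3 were lower. With no variance trend, 1 was higher and 1 lower. IAPP, the islet amyloid gene, was low in the line, at 15.3 ± 3.76 in siMNX1 and 57.8 ± 16.1 in siNT (SD, n = 3 each), and passed the threshold as lower (limma, log2 fold change -1.84, adjusted p = 0.0123). Its call ended without siNT replicate 1 (adjusted p = 0.0583) or siNT replicate 2 (0.0671), and with no variance trend (0.0529). SLC2A2, a glucose transporter gene, was also low, at 29.01 ± 9.44 in siMNX1 and 36.8 ± 9.70 in siNT (adjusted p = 0.591). Of markers of other cells, the table held 4 of 19 for acinar and ductal cells and 3 of 19 for mesenchymal, endothelial and immune cells, and 0 of these passed in limma (1 and 1 at an unadjusted p under 0.05). Markers of other islet and neural cells did pass in part, beside the same shares of all genes. Of the 14 measured of 18 alpha cell markers, 4 were higher and 2 lower. The numbers were 3 and 1 without siNT replicate 2, and 2 and 1 with no variance trend. The alpha cell markers summed to 33922 to 34810 in siMNX1 and 33572 to 34778 in siNT. Of the 9 measured of 14 gamma and epsilon cell markers, 1 was higher and 1 lower. Their sums were 1368 to 1532 in siMNX1 and 1422 to 1456 in siNT. Of the 7 measured of 14 neural markers, 0 were higher and 1 lower. Their sums were 8645 to 8947 in siMNX1 and 9091 to 9271 in siNT. The higher gamma and epsilon call ended with any of the 6 libraries left out. The lower one and the neural one ended with any but siMNX1 replicate 2 left out, and with no variance trend. The part of these markers in the results was not tested. On the second principal component, with 20.1% of the variance, siMNX1 replicate 2 lay at 31.7 and siMNX1 replicate 1 at -29.4, and the remaining 4 stayed from -2.40 to 2.66. MNX1 RNA had 1885, 1708 and 1751 in siMNX1 replicates 1 to 3, against 2039, 2033 and 1988 in siNT. Its log2 fold change of -0.18 (95% interval -0.31 to -0.06) missed the threshold (limma, adjusted p = 0.116), and the siMNX1 libraries were all below the siNT libraries.

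Of the 10 identity factors, 0 passed the threshold of an adjusted p of 0.05 in limma, where 3.32% of all 16792 genes passed (335 higher and 223 lower). Their log2 fold changes lay between -0.30 (GLIS3) and 0.20 (ST18), with 4 above 0 and 6 below 0. The median was -0.05 over the 10 factors and -0.00045 over all genes. At an unadjusted p under 0.05 stood 2 of the 10, ISL1 and GLIS3, against 18.4% of all genes. For 3 of the 10 the libraries of the groups did not overlap (1 above, ISL1, and 2 below, PDX1 and GLIS3), against 24% of all genes (12% above and 12.1% below). These shares were near the background. Summed over the 10 factors, normalized counts were 66591, 66597 and 66057 in siMNX1 replicates 1 to 3 and 67205, 67309 and 66910 in siNT. INSM1 and PAX6 made up most of each sum. Without PAX6 the sums were 52317, 53227 and 51541 in siMNX1 and 52928, 51611 and 51208 in siNT, and the groups overlapped.

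**Figure D1:**
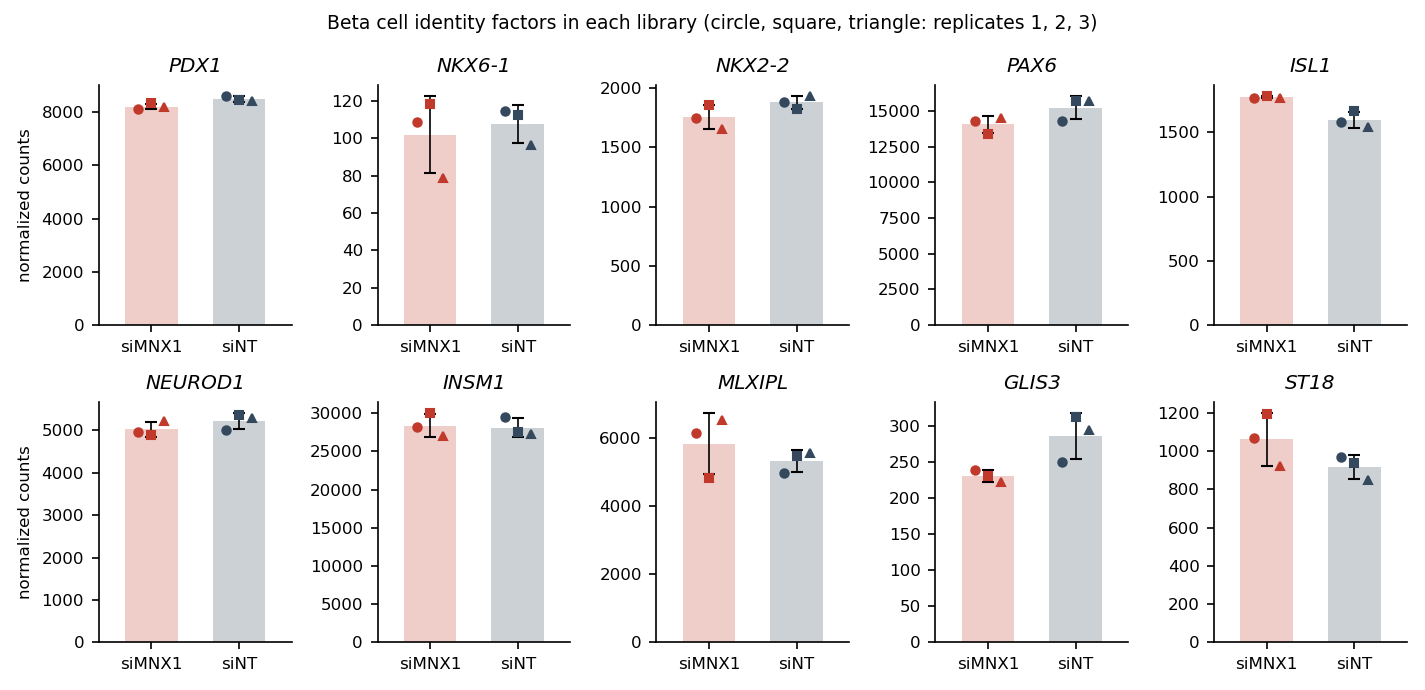
Normalized counts of the 10 factors in each library, siMNX1 left and siNT right. Bars and error bars are mean and SD (n = 3), and circles, squares and triangles are replicates 1, 2 and 3. ISL1 in siMNX1 lies above all siNT libraries, PDX1 and GLIS3 lie below them, and for the other 7 factors the groups overlap.

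A p above the threshold does not show equal levels, so the 95% intervals of the differences were examined. They lay wholly within 1.5-fold in either direction for 10 of 10 factors, against 67.1% of all genes. The interval of MNX1, the target of the siRNA, also lay within 1.5-fold (log2 -0.31 to -0.06). Most of the 10 factors were abundant: 7 of 10 averaged at least 1000 over the 6 libraries. Among the 4770 genes at that level the share within 1.5-fold was 97.9%. With each gene's own error, a rise of 12.4% would have passed for PDX1, one of 15.5% for NEUROD1 and one of 16.5% for INSM1. PAX6 would have needed 16.9%, ISL1 17.4% and NKX2-2 19.5%. The sizes were 33.9% for ST18, 35.1% for MLXIPL, 39.0% for GLIS3 and 71.1% for NKX6-1. These sizes are for rises. On the log2 scale the cut is the same in both directions, 0.47 for GLIS3 and 0.77 for NKX6-1. A fall therefore passes at a smaller percentage than a rise. An observed difference inside its cut could not be called here. With a library left out, 8 to 10 of the 10 intervals still lay within 1.5-fold.

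**Figure D2:**
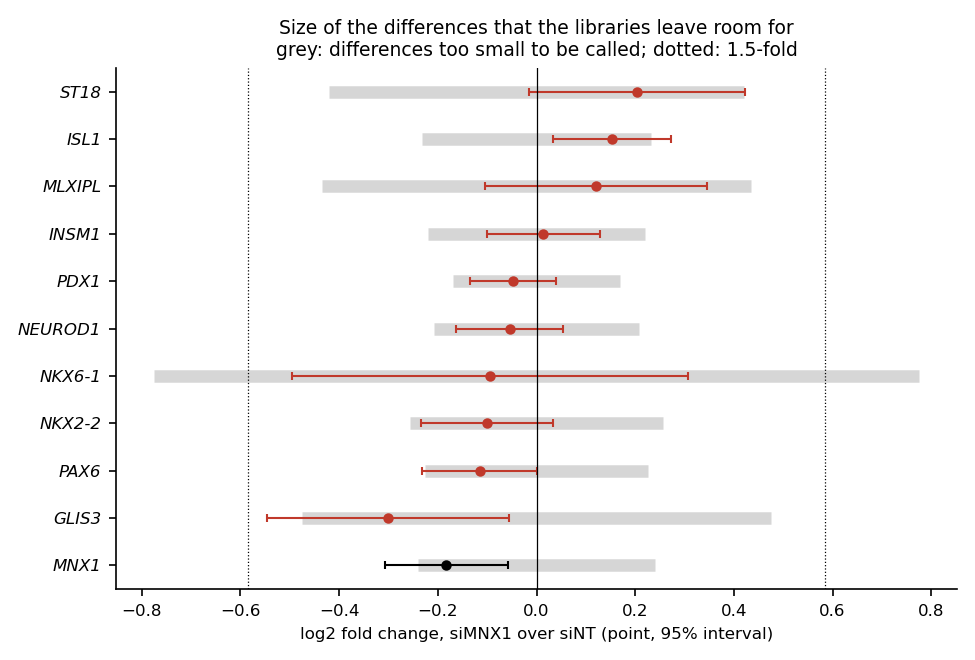
Log2 fold changes of siMNX1 over siNT (points) with 95% limma intervals for the 10 factors and for MNX1. Grey bands mark differences that would have been too small to pass the threshold given each gene's error, and dotted lines mark 1.5-fold. All 10 points lie inside their grey bands, and all 10 intervals lie between the dotted lines. Both also hold for MNX1.

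PDX1 (chromosome 13, 27920020 to 27926231, plus strand, GRCh38) activates the insulin gene and sets up the pancreas in development. It had 8132, 8335 and 8178 normalized counts in siMNX1 replicates 1 to 3, against 8611, 8451 and 8417 in siNT. The siMNX1 libraries all lay below the siNT libraries, by little. The log2 fold change was -0.05 (95% interval -0.14 to 0.04, adjusted p = 0.559), or -3.28% with an interval from -8.97% to 2.76%. PDX1 varied little between libraries, with a coefficient of variation of 1.29% in siMNX1 and 1.22% in siNT.

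NKX6-1 (chromosome 4, 84491987 to 84498450, minus strand), which keeps beta cells from taking other islet fates, was the lowest of the 10 in counts. It had 109, 118 and 78.6 in siMNX1 replicates 1 to 3, against 114, 112 and 96.1 in siNT. The groups overlapped, and the third replicate was the lowest in both. With a coefficient of variation of 20.3% in siMNX1 and 9.33% in siNT, its difference was the least well determined (log2 fold change -0.09, 95% interval -0.50 to 0.31, adjusted p = 0.825). The sign turned to 0.08 without siMNX1 replicate 3.

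NKX2-2 (chromosome 20, 21511010 to 21514026, minus strand) is needed to form beta cells and represses genes of other islet cells. Its normalized counts were 1742, 1858 and 1656 in siMNX1 replicates 1 to 3, against 1883, 1819 and 1929 in siNT. The groups overlapped through siMNX1 replicate 2 (log2 fold change -0.10, 95% interval -0.23 to 0.03, adjusted p = 0.408).

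PAX6 (chromosome 11, 31784779 to 31818062, minus strand), a paired-box and homeobox factor of all islet hormone cells, had 14274, 13370 and 14515 in siMNX1 replicates 1 to 3. In siNT it had 14276, 15698 and 15702. The siNT replicates 2 and 3 lay above all siMNX1 libraries, and siNT replicate 1 lay among them. The difference was close to the unadjusted 0.05 and far from the adjusted threshold (log2 fold change -0.12, 95% interval -0.23 to 0.002, unadjusted p = 0.0528, adjusted p = 0.281).

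ISL1 (chromosome 5, 51383391 to 51394738, plus strand), a LIM homeobox factor of all islet hormone cells and of motor neurons, had 1765.5, 1784 and 1772 in siMNX1 replicates 1 to 3. In siNT it had 1581, 1667 and 1541. The lowest siMNX1 library exceeded the highest siNT library, and the siMNX1 libraries were almost equal, with a coefficient of variation of 0.533%. The log2 fold change of 0.15 (SE 0.054, 95% interval 0.03 to 0.27) had the smallest unadjusted p of the 10 factors, 0.0179, and did not pass after adjustment (limma, adjusted p = 0.165). Over all alternatives the adjusted p ran from 0.143 to 0.396. Delta cells also express ISL1. Of the 10 measured of 14 delta cell markers, 4 were higher, 1 was lower and 5 were not called, against 1.99% higher and 1.33% lower of all genes. With no variance trend, 2 were higher and 1 lower. The 10 delta cell markers summed to 14022 to 15745 in siMNX1 and 11164 to 11460 in siNT. The part of these markers in the ISL1 values was not tested. In RNA of whole cultures, a different number of cells of a type and a different amount of RNA per cell cannot be told apart.

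The promoter of ISL1 is shown because ISL1 had the lowest unadjusted p of the factors above 0. Capitals mark TAAT in either orientation, the core that many homeodomains bind, and CANNTG, the E-box bound by NEUROD1 with an E protein. The window is chr5:51383198-51383497 on the plus strand (RefSeq, GRCh38.p14).
ISL1: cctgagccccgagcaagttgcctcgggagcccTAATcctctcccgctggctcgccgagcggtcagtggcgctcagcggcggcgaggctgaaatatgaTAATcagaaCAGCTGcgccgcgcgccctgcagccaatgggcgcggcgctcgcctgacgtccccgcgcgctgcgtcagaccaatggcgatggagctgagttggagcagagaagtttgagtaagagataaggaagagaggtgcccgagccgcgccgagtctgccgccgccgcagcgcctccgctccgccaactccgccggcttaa
It holds 1 CANNTG and 2 copies of the homeodomain core. The longer homeodomain motif TAATTA, which contains the core on both strands, was found in 0 of 17 promoter windows matched to 7 of the 10 factors, against 4.84% of all 35116 windows of the same length. TAAT was present in 9 of the 17, against 50.2% of all windows, and CANNTG in 11 of the 17, against 68.7%. Several windows belong to 1 gene, and a match is a description of the letters only.

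NEUROD1 (chromosome 2, 181673088 to 181680876, minus strand), an activator of the insulin gene, had 4951, 4900 and 5228 in siMNX1 replicates 1 to 3, against 5011, 5356 and 5292 in siNT. The groups overlapped (log2 fold change -0.05, 95% interval -0.16 to 0.05, adjusted p = 0.598). INSM1 (chromosome 20, 20368121 to 20370949, plus strand), a repressor that drives endocrine differentiation, was the most abundant factor. It had 28169, 29993 and 26974 in siMNX1 replicates 1 to 3, against 29562, 27495 and 27255 in siNT. Its libraries were mixed between the groups, and its difference was the smallest of the 10 (log2 fold change 0.01, 95% interval -0.10 to 0.13, adjusted p = 0.918). The sign of so small a difference turned with single libraries: it was -0.03 without siMNX1 replicate 2 and -0.002 without siNT replicate 2, and also below 0 without siNT replicate 3.

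GLIS3 (chromosome 9, 3824127 to 4348392, minus strand), an activator of the insulin gene, had the largest log2 fold change in size of the 10. It had 239, 230 and 223 in siMNX1 replicates 1 to 3, against 250, 312 and 294 in siNT. Every siMNX1 library lay below every siNT library, with siNT replicate 1 close to siMNX1 replicate 1. The difference of -18.8% (log2 fold change -0.30, SE 0.110, 95% interval -0.55 to -0.05) did not pass (limma, unadjusted p = 0.0215, adjusted p = 0.18). Over the alternatives, the adjusted p ran from 0.127 without siNT replicate 1 to 0.416 without siNT replicate 2. Both RefSeq promoter windows of GLIS3 are shown because GLIS3 had the lowest unadjusted p of the factors below 0. They lie at chr9:4298447-4298746 and chr9:4152134-4152433 on the minus strand of GRCh38.p14, with capitals as for ISL1.
GLIS3 first window: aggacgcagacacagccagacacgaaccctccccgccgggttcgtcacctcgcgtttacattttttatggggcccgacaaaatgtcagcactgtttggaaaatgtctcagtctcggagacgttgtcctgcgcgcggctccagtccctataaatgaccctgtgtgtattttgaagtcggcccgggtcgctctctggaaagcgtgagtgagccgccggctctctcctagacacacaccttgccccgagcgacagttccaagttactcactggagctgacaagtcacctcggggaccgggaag
GLIS3 second window: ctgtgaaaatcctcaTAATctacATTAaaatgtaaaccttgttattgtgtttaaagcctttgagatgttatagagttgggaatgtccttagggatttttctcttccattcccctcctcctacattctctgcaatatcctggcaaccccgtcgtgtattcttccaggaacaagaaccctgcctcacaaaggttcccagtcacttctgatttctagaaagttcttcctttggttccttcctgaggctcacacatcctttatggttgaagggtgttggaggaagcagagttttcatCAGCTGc
The first window holds 0 of either motif, and the second holds 2 copies of the homeodomain core and 1 E-box. The GC content of the 17 windows of the factors ran from 42.7% to 70.3%, with the second GLIS3 window the lowest.

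ST18 (chromosome 8, 52110839 to 52460959, minus strand), a relative of MYT1 known for regulating apoptosis in beta cells, had 1068, 1196 and 922 in siMNX1 replicates 1 to 3. In siNT it had 968, 940 and 847. The groups overlapped through siMNX1 replicate 3. The log2 fold change was 0.20 (95% interval -0.01 to 0.42, adjusted p = 0.306), and it was 0.11 without siMNX1 replicate 2 and 0.30 without siMNX1 replicate 3.

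MLXIPL (chromosome 7, 73593194 to 73624543, minus strand) switches on carbohydrate-response genes when glucose is high. It had 6141, 4814 and 6510 in siMNX1 replicates 1 to 3, against 4949, 5458 and 5537 in siNT. The siMNX1 replicates 1 and 3 lay above all siNT libraries and siMNX1 replicate 2 lay below all of them, 0.39 on the log2 scale under the mean of the other siMNX1 libraries. With all libraries the log2 fold change was 0.12 (95% interval -0.10 to 0.35, adjusted p = 0.569). Without siMNX1 replicate 2 it was 0.25 with an adjusted p of 0.0641, the closest that any of the 10 factors came to the threshold under any alternative.

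The carbohydrate-response targets did not follow 1 pattern. Of 21 measured targets, 1 was higher and 0 were lower, against 1.99% and 1.33% of all genes. Their median log2 fold change was 0.02. The higher one was PKLR, which encodes the liver-type pyruvate kinase, at 1335, 1115 and 1207 in siMNX1 replicates 1 to 3, against 982, 926 and 915 in siNT (log2 fold change 0.37, adjusted p = 0.0327). That call ended without siMNX1 replicate 1 (adjusted p = 0.0957), siMNX1 replicate 3 (0.0759), siNT replicate 1 (0.0644), siNT replicate 2 (0.111) or siNT replicate 3 (0.135), and with no variance trend (0.127). In siMNX1 replicate 2, where MLXIPL was low, PKLR was also the lowest of its group. TXNIP, a glucose-induced inhibitor of thioredoxin, had 1927, 1663 and 1996 in siMNX1, and 2024, 2190 and 1964 in siNT. In it siMNX1 replicate 2 was again the lowest. TXNIP and the genes after it in this paragraph are named after their values were seen. ELOVL6 and ACACA, enzymes of fatty acid synthesis, ran the other way in that library, which lay 0.40 and 0.37 above the mean of the other siMNX1 libraries on the log2 scale. The largest such differences among the targets went both ways, at -1.20 for BHLHE40 and 0.90 for SIK1. MLX, the partner of MLXIPL, had 920, 822 and 891 in siMNX1, and 869, 877 and 858 in siNT (log2 fold change 0.01, adjusted p = 0.934).

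Levels were then compared between the factors per kb of the longest protein-coding transcript of each (GENCODE 29). INSM1 stood highest, at 10031 ± 537 normalized counts per kb in siMNX1 and 9934 ± 448 in siNT (SD, n = 3 each), followed by PDX1 at 3285 ± 42.4 and 3396 ± 41.4. PAX6 (1928 ± 82.8 in siMNX1 and 2089 ± 113 in siNT), MLXIPL (1776 ± 272 and 1621 ± 97.4) and NEUROD1 (1762 ± 61.8 and 1830 ± 64.4) came next. In siMNX1, PAX6 overlapped MLXIPL within their SDs, and MLXIPL overlapped NEUROD1. In siNT these 3 stood apart in the order PAX6, NEUROD1, MLXIPL. NKX2-2 (837 ± 48.3 and 897 ± 26.2), ISL1 (721 ± 3.84 and 649 ± 26.1) and ST18 (172 ± 22.2 and 148 ± 10.2) followed, each apart from the next in both groups. NKX6-1 (38.8 ± 7.86 and 40.9 ± 3.82) and GLIS3 (34.6 ± 1.21 and 42.8 ± 4.81) were lowest and overlapped each other in both. The place of PAX6 depended on the length used: over all of its annotated exons it ranked 6 of 10 in place of 3 of 10, while INSM1, PDX1, ISL1, ST18, NKX6-1 and GLIS3 kept their ranks.

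**Figure D3:**
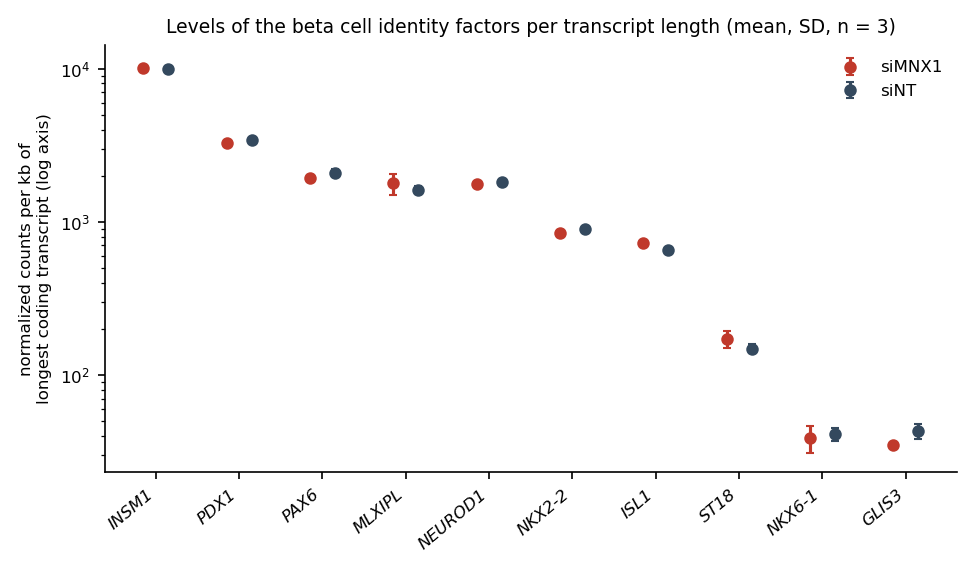
Normalized counts per kb of the longest protein-coding transcript on a log axis, siMNX1 left of siNT for each factor, as mean and SD (n = 3). INSM1 is highest at 10031 in siMNX1 and 9934 in siNT, and NKX6-1 and GLIS3 lie lowest, at or under 42.8.

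Genes around the factors were examined next. Within 100 kb of the 10 factors, 21 other genes were in the table, of which limma called 1, against the 3.32% of all genes. It was CDX2, a homeobox gene of the intestine that lies 35.9 kb from PDX1 on the opposite strand. CDX2 had 1173, 1416 and 1297 in siMNX1 replicates 1 to 3, against 1062, 1026 and 907 in siNT, with no overlap (log2 fold change 0.37, adjusted p = 0.0491). That call ended with any of the 6 libraries left out, namely siMNX1 replicate 1 (adjusted p = 0.0514), 2 (0.101) or 3 (0.11) and siNT replicate 1 (0.0753), 2 (0.117) or 3 (0.172). It also ended with no variance trend (0.164) and with a pseudocount of 0.1 (0.0512). PLUT, a noncoding RNA that lies 2.72 kb from PDX1 on the opposite strand and is known to act on PDX1 transcription in human beta cells, had 479 ± 24.97 in siMNX1 and 386 ± 36.0 in siNT. Its log2 fold change of 0.31 had an adjusted p of 0.108. The PDX1 locus gave log2 fold changes of 0.31 for PLUT, 0.18 for the noncoding LINC00543 at 27.3 kb (adjusted p = 0.583), 0.37 for CDX2 and -0.05 for PDX1, and of these 4 CDX2 alone passed.

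At PAX6, the opposite-strand genes PAUPAR and ELP4 overlap the factor, and the sources used here do not say how strand was treated, so that their reads cannot be fully told apart from its own. PAUPAR had 506 ± 7.57 in siMNX1 and 516 ± 8.38 in siNT (log2 fold change -0.03, adjusted p = 0.877), and ELP4 had a log2 fold change of -0.02. NEUROD1 is overlapped by CERKL on the same strand, which had 1490 ± 36.2 in siMNX1 and 1360 ± 106 in siNT (log2 fold change 0.13, adjusted p = 0.334). AC005089.1, an RNA inside an intron of MLXIPL, had 49.2 ± 3.97 in siMNX1 and 45.5 ± 3.77 in siNT (log2 fold change 0.11, adjusted p = 0.802).

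The wider network around the factors was described by lists of related genes. The lists were chosen with earlier results of these data known. Measured were 13 relatives, 37 partners and cofactors, 16 inhibitors and turnover genes, 33 other islet factors, 30 known targets and 21 MLXIPL targets. Over these 6 lists, 19 genes were higher and 5 lower, beside 1.99% and 1.33% of all genes. Without siMNX1 replicate 1 the numbers were 11 and 2, without siNT replicate 2 they were 11 and 1, and without siNT replicate 3 they were 10 and 2. Without siNT replicate 1, 2 were lower, and with no variance trend 12 were higher and 1 lower.

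Of 33 other islet transcription factors measured, 7 were higher and 0 lower, with a median log2 fold change of 0.13, beside 0 and 0 of the 10 identity factors and 1.99% and 1.33% of all genes. Without siMNX1 replicate 1, siNT replicate 2 or siNT replicate 3, 3 were higher, and with no variance trend 4. RFX3, FOXO1 and HNF4G, named after their values were seen, and MAFA lost their calls without siNT replicate 3 (limma, adjusted p = 0.0727, 0.137, 0.15 and 0.0699). HHEX is also among the delta cell markers above, whose part in this count was not tested. The higher ones included the delta cell factor HHEX (484 ± 24.4 in siMNX1 and 54.1 ± 10.6 in siNT) and RFX6, a factor of islet development (4565 ± 81.1 in siMNX1 and 2784 ± 14.8 in siNT). Their log2 fold changes were 3.16 and 0.71, and the largest adjusted p over the alternatives was 0.00563 for HHEX and 0.014 for RFX6. MAFA, which binds the insulin gene beside PDX1 and NEUROD1, had 526, 516 and 516 in siMNX1 replicates 1 to 3, against 398, 331 and 332 in siNT (log2 fold change 0.56, adjusted p = 0.0131). Its call ended without siMNX1 replicate 1 (adjusted p = 0.0549), siNT replicate 2 (0.0604) or siNT replicate 3 (0.0699), and with no variance trend (0.0592).

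Among 13 measured relatives of the 10 factors, 2 were higher and 0 lower, against 1.99% and 1.33% of all genes. NKX6-3, a relative of NKX6-1, rose to 9700, 11042 and 10012 normalized counts in siMNX1 replicates 1 to 3, against 5331, 5014 and 5034 in siNT (log2 fold change 1.00, SE 0.056, limma, adjusted p = 2.14e-05). It kept its call under all alternatives, with adjusted p up to 0.014. The other was CDX2. GLIS2, INSM2, MYT1 and MLXIP, named after their values were seen as the nearest relatives of GLIS3, INSM1, ST18 and MLXIPL, had log2 fold changes of -0.15, -0.22, -0.09 and -0.06, and none of these 4 passed.

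Of 37 DNA-binding partners and cofactors, 1 was higher and 1 lower, against 1.99% and 1.33% of all genes. The counts were near those shares, and the median log2 fold change was 0.02. RCOR2, a CoREST protein of the complex that INSM1 recruits, fell to 2100, 2207 and 2310 in siMNX1 replicates 1 to 3, against 2666, 2745 and 2916 in siNT (log2 fold change -0.33, adjusted p = 0.0161). The call ended without siMNX1 replicate 1 (adjusted p = 0.0633), siNT replicate 2 (0.0606) or siNT replicate 3 (0.0851), and with no variance trend (0.0993). KDM1A, the demethylase of the same complex and named after its values were seen, had a log2 fold change of -0.03. SMARCA2, an ATPase of the SWI/SNF chromatin remodellers, had 2947 ± 171 in siMNX1 and 2370 ± 129 in siNT (log2 fold change 0.31, adjusted p = 0.0268). Its call ended without siMNX1 replicate 1 (0.0844) or 2 (0.0573) and without siNT replicate 1 (0.0832), 2 (0.106) or 3 (0.0539), and with no variance trend (0.133).

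Of 16 inhibitors and turnover genes, 0 were higher and 2 lower, against 1.99% and 1.33% of all genes. Both lower ones encode LIM-only proteins, which compete with LIM homeodomain factors such as ISL1 for the cofactor LDB1. LMO4 had 1492, 1495 and 1385 in siMNX1 replicates 1 to 3, against 1776, 1703 and 1775 in siNT (log2 fold change -0.27, adjusted p = 0.0365). LMO1 was near the low end of the table, at 7.62, 6.97 and 10.1 in siMNX1 and 24.3, 33.8 and 29.7 in siNT (log2 fold change -1.71, adjusted p = 0.0197). The LMO4 call ended without siMNX1 replicates 1 (adjusted p = 0.0784) or 3 (0.103) and siNT replicates 1 (0.111), 2 (0.0917) or 3 (0.145), and with no variance trend (0.127). The LMO1 call ended without siMNX1 replicate 1 (0.0596) and siNT replicates 1 (0.0524), 2 (0.0977) or 3 (0.102). LDB1 itself, named after its values were seen, had 1698, 1690 and 1687 in siMNX1, and 1552, 1706 and 1747 in siNT (log2 fold change 0.02).

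Of 30 measured genes known as targets of these factors in beta cells, 8 were higher and 2 lower, against 1.99% and 1.33% of all genes. Without siNT replicate 1 the numbers were 6 and 1, and without siNT replicate 3 they were 6 and 2. With no variance trend they were 7 and 0. The median log2 fold change of the 30 targets was 0.11. The higher ones with the smallest adjusted p were SST, CHGA, PTPRN and SYT4, with log2 fold changes of 1.96, 0.47, 0.42 and 0.73 (limma, adjusted p = 3.97e-06, 0.000267, 0.00116 and 0.00148). SST, the delta cell hormone, is also among the delta cell markers. CHGA and PTPRN encode proteins of secretory granules, and SYT4 a synaptotagmin that acts in insulin secretion. The lower ones were IAPP and G6PC2, a glucose-6-phosphatase subunit of islets, at 8539.9 ± 237 in siMNX1 and 10966 ± 758 in siNT (limma, adjusted p = 0.00855). The G6PC2 call ended with no variance trend (0.0949), and the IAPP call without siNT replicate 1 or 2, as given above.

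**Figure D4:**
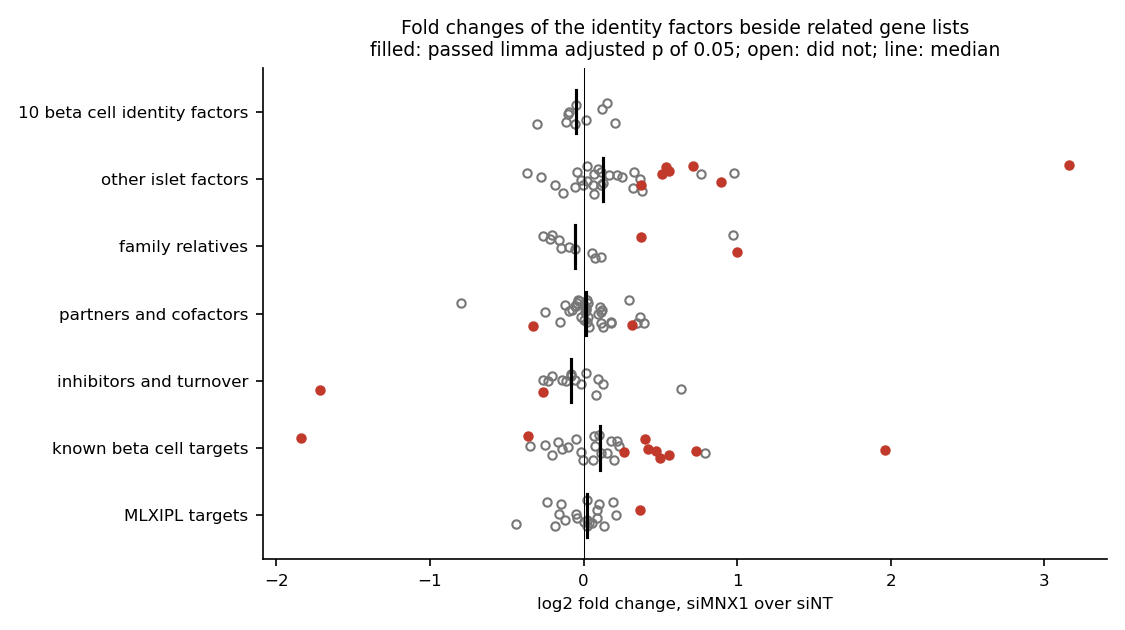
Log2 fold changes of siMNX1 over siNT for the 10 factors and for 6 lists of related genes, 1 point a gene, filled where the gene passed an adjusted p of 0.05 in limma, with the list median as a line. None of the 10 factors is filled, where 3.32% of all genes passed. Filled are 7 of 33 other islet factors, 10 of 30 known targets and 2 of 13 relatives. Also filled are 2 of 16 inhibitors and turnover genes and 1 of 21 MLXIPL targets. Of 37 partners and cofactors, 1 higher and 1 lower are filled.

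For each factor, the gene with the most similar pattern over the 6 libraries was sought among 12678 named genes with a mean of at least 50, by Pearson's r of log2 values. These were MCM5 for PDX1 (r = 0.995), LSM12 for NKX6-1 (r = 0.997), LHFPL4 for NKX2-2 (r = 0.983), ABCC6P1 for PAX6 (r = 0.999) and ACBD7 for ISL1 (r = 0.997). For NEUROD1 it was E2F4 (r = 0.994), for INSM1 ZBTB34 (r = 0.985), for MLXIPL LCN12 (r = 0.993), for GLIS3 CPSF4 (r = 0.990) and for ST18 ANKIB1 (r = 0.995). With so few libraries such values are common, and for every factor the 20 closest genes all reached an r of at least 0.946. No factor had another of the 10 as its closest gene. Among 12678 candidates this does not show whether the factors vary together.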

How the data were processed

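RNA was measured in 6 libraries, 3 siMNX1 and 3 siNT, each from 5 ng of RNA by the Ovation Solo method with ribosomal RNA depleted, per the labels' protocols, while the labels' molecule field gives polyA RNA. The authors deposited normalized counts per gene, a signal with decimals that is never negative. The submitters' processing notes list GRCh38 as the build and name DESeq, DESeq2 1.26.0, R 3.6.3, RSEM 1.3.1 and STAR 2.7.6a, without saying what each did. Neither annotation release nor strand treatment is stated there. Whole reads could not be recovered, since whole multiples of the best step, at a tolerance of 0.02, made up 25.8% to 47.4% of a library's values below 10, so no count model was fitted and no counting interval is given.

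Values were analysed as log2(value + 1), on which fold changes of low genes are understated, with limma 3.58.1 (R 4.3.3), a variance trend, and Benjamini-Hochberg adjustment over all 16792 genes (threshold 0.05). A minimum mean of 5 removed 0 genes. Intervals are limma's 95% intervals. Alternatives were pseudocounts of 5 and 0.1, a minimum mean of 50 or none, 3 other scalings, a robust model, no variance trend, a replicate block and each library left out. Symbols came from the file (14738 genes) or a gene table (417), and positions from GENCODE 29. The smallest detectable difference, on the log2 scale, is the gene's standard error times the t value at the largest p that passed. Its percentage is given for a rise. On simulated data with 16792 genes and 200 changed ones, the siMNX1 against siNT comparison recovered 8% of genes changed 1.25-fold, 46% at 1.5-fold, 66% at 2-fold and 92% at 4-fold, and 2.75% of calls were false. The simulated errors were independent and drawn from limma's own fitted variance model. These shares therefore hold only where that model holds, and do not test the calls on the real values.

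The factors and the gene lists were chosen with earlier results of these data known. Genes named are the 10 factors, MNX1, up to 4 genes past the threshold by smallest adjusted p from each list (or the 2 most abundant), genes overlapping a factor, and the most similar gene of each factor. Other names are stated as such, and some genes that the rule names are not reported here. Python 3.11.15, numpy 2.4.6, pandas 2.3.3 and matplotlib 3.10.9 were used for tables and plots.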

Additional observations from a re-analysis of the deposited data

How the results depend on the processing

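Under 16 alternatives to the fit, 0 of the 10 factors were called higher and 0 lower in any. In 156 of 160 values the direction and the side of the threshold were kept. The alternative with no filter on the mean equalled the main fit, because the minimum mean removed no gene. Its values among these were therefore kept in advance and test nothing. The 4 values not kept were changes of sign with a library left out, for INSM1 and NKX6-1. The very small INSM1 log2 fold change ran from -0.027 to 0.0506 over the left-out libraries. That of NKX6-1, the least well determined of the 10, ran from -0.2115 to 0.0792. Intervals within 1.5-fold numbered 8 to 10 of the 10 factors with a library left out and 10 under the others. Over all genes, higher and lower calls numbered 131 and 60 with no variance trend, 162 and 75 with a replicate block, and 133 to 257 and 64 to 179 with a library left out. Calls over the 6 related lists numbered 12 higher and 1 lower with no variance trend, 3 lower with the replicate block, and 10 to 16 higher and 1 to 5 lower with a library left out. The block changed no call of the 10 factors and ended those of CDX2 (adjusted p = 0.0959), PKLR (0.0571), SMARCA2 (0.0912), LMO1 (0.067) and LMO4 (0.107) among the genes described in full, and the replicate numbers showed no sign of pairing (correlations of same-numbered deviations of -0.01, -0.009 and -0.04). Of 382 values for 24 called related genes, 75 lost their call and 0 reversed. IAPP and LMO1 gave no value at a minimum mean of 50. With the length of all annotated exons, a setting chosen after seeing the data, NKX2-2, PAX6, NEUROD1 and MLXIPL ranked 5, 6, 3 and 4 in level per kb, in place of 6, 3, 4 and 5. The 2 rankings divide the same counts and differ only in the length used. It was 20812 bases of exons against 7290 of transcript for PAX6, and 4815 against 3278 for MLXIPL. For NEUROD1 it was 3312 against 2852, and for NKX2-2 2092 in both. The cause of the other shifts given here was not tested. With unknown depth and 3 libraries a group, differences inside the log2 cut of each factor could not be called.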
